A study of Mus musculus with 6 samples.

Results

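The genes described here are 39 mouse genes that run mitosis and cytokinesis, listed by name, of 37991 genes counted in each of 6 RNA-seq libraries of C2C12 cells. C2C12 is an established mouse myoblast line (strain C3H in the labels) that leaves the cell cycle and fuses into myotubes when serum is reduced. Cytoplasmic polyA RNA was sequenced from cells transduced with a lentivirus carrying a short hairpin against Kap1 (shKap1, the knockdown) or against luciferase (shCtrl, the control). Kap1 is the chromatin corepressor encoded by Trim28. The groups were 48-hour differentiating cells with shKap1 (MT knockdown, 1 library), the same stage with shCtrl (MT control, 1 library), proliferating myoblasts with shKap1 (MB knockdown, 2 libraries) and proliferating myoblasts with shCtrl (MB control, 2 libraries). MB cells grew in 10% fetal calf serum, and MT cells were in 2% horse serum with insulin, transferrin and selenium for 48 hours. All groups carry a lentiviral hairpin, no other hairpin against Kap1 is among the libraries, and no label says whether the MB replicates were separate cultures. The spread behind each p-value is thus that between these libraries and may be technical.

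A dividing cell enters mitosis when cyclin B and the kinase CDK1 become active together. Kinetochores then attach chromosomes to the spindle, the spindle checkpoint holds the cell until every chromosome is attached, and the anaphase-promoting complex (APC/C) with its activator CDC20 starts anaphase, after which the cleavage furrow separates the daughter cells. Most of these genes are transcribed together late in the cycle. The transcription factors B-MYB (Mybl2) and FOXM1, bound through the MuvB complex to a CHR element in the promoters, switch them on, and the DREAM complex, built on the same MuvB core, holds them down in cells that have left the cycle. Myoblasts must leave the cycle to form myotubes, so lower mitotic RNA is a known part of muscle differentiation.

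Total counts on genes were 36247530 to 49839994 per library, and the 39 genes had 550 to 36000 counts each in each library. Levels are given in CPM, counts scaled to a common library size after TMM scaling. Trim28 itself was at 114 CPM in MT knockdown and 394 CPM in MT control, and at 150.2 and 102 CPM in MB knockdown and 596 and 428 CPM in MB control. The 12 terminal muscle markers summed to 171 CPM in MT knockdown and 10638 CPM in MT control, against 19.6 and 112 CPM in MB knockdown and 20.8 and 189 CPM in MB control. The 7 myoblast markers, among them Myod1 and Des, summed to 4955 CPM in MT knockdown, 5401 CPM in MT control, 5525 and 6935 CPM in MB knockdown and 6353 and 6943 CPM in MB control. This sum hides opposite changes of single markers. From MT control to MT knockdown their log2 changes ran from -3.22 to 1.105 (median -1.27), with 5 below 0 and 2 above. The MT control library was above both MB control libraries for 5 markers and below both for 2. Of all 16472 tested genes 6658 were above both and 6681 below both. Markers of blood, endothelial, fat and neural cells summed to at most 11.4 CPM per list in any library, and Adgre1, Tie1, Adipoq, Lep, Rbfox3 and Snap25 were at 0 in all 6. The deposited file names carry a mark (the word "old") on both MT libraries and on replicate 1 of both MB groups. The sources used here do not give its meaning, and in MB it cannot be told apart from the replicate number. Without a term for it, edgeR's quasi-likelihood test (Benjamini-Hochberg adjusted p under 0.05 over 16472 genes) called no gene in any comparison. With a term for the file mark, which leaves 1 residual degree of freedom, it called 632 to 7398 genes per comparison. As both MT libraries carry the mark, this fit sets MT against MB at the level of replicate 1. The fitted difference of replicate 2 from it is removed. The verbs rose and fell are used only of genes called with that term, and no call in MT has a replicate.

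In control cells, 38 of the 39 genes fell in MT relative to the replicate 1 level of MB, the median change being -1.43 on the log2 scale. Between single libraries the median was -1.47 against MB replicate 1 and -1.37 against MB replicate 2. The percents below use the mean of both MB replicates. All 39 were lower in the MT library than in both MB libraries, and the MT control library kept 22.4% to 67.1% of the MB control mean, with a median of 37.0%. Over all tested genes the median change with the file mark term was -0.01, 22.6% fell, and 40.6% were lower in MT without overlap. Without the file mark term the median was -1.44 and none of the 39 passed (smallest adjusted p = 0.0627, with 38 at an unadjusted p under 0.05, all lower, against 11.9% of all genes). DESeq2 without the term called 36 of them as lower, and 6.63% of all genes. Cdc25b, a phosphatase that activates CDK1, was the exception at -0.59 (SE 0.25, adjusted p = 0.125). Beside this, the cell cycle inhibitor Cdkn1a was at 1719 CPM in MT control and 166 and 163 CPM in MB control. Of a list of 5 cell cycle exit genes, 3 rose in MT control cells and 2 were lower without a call. Of all 16472 tested genes 3670 rose in this comparison. The nuclear RNA Malat1 was at 1985 CPM in MT control and 702 and 275 CPM in MB control. It belongs to a list of 11 nuclear and mitochondrial RNAs that did not share this change. The MT control library was above both MB control libraries for 2 of them, below both for 4 and neither for 5. Their sum was 27595 CPM in MT control and 24527 and 36654 CPM in MB control. The part of these in the result was not tested. In bulk RNA, fewer dividing cells and less mitotic RNA per dividing cell cannot be told apart.

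**Figure D1:**
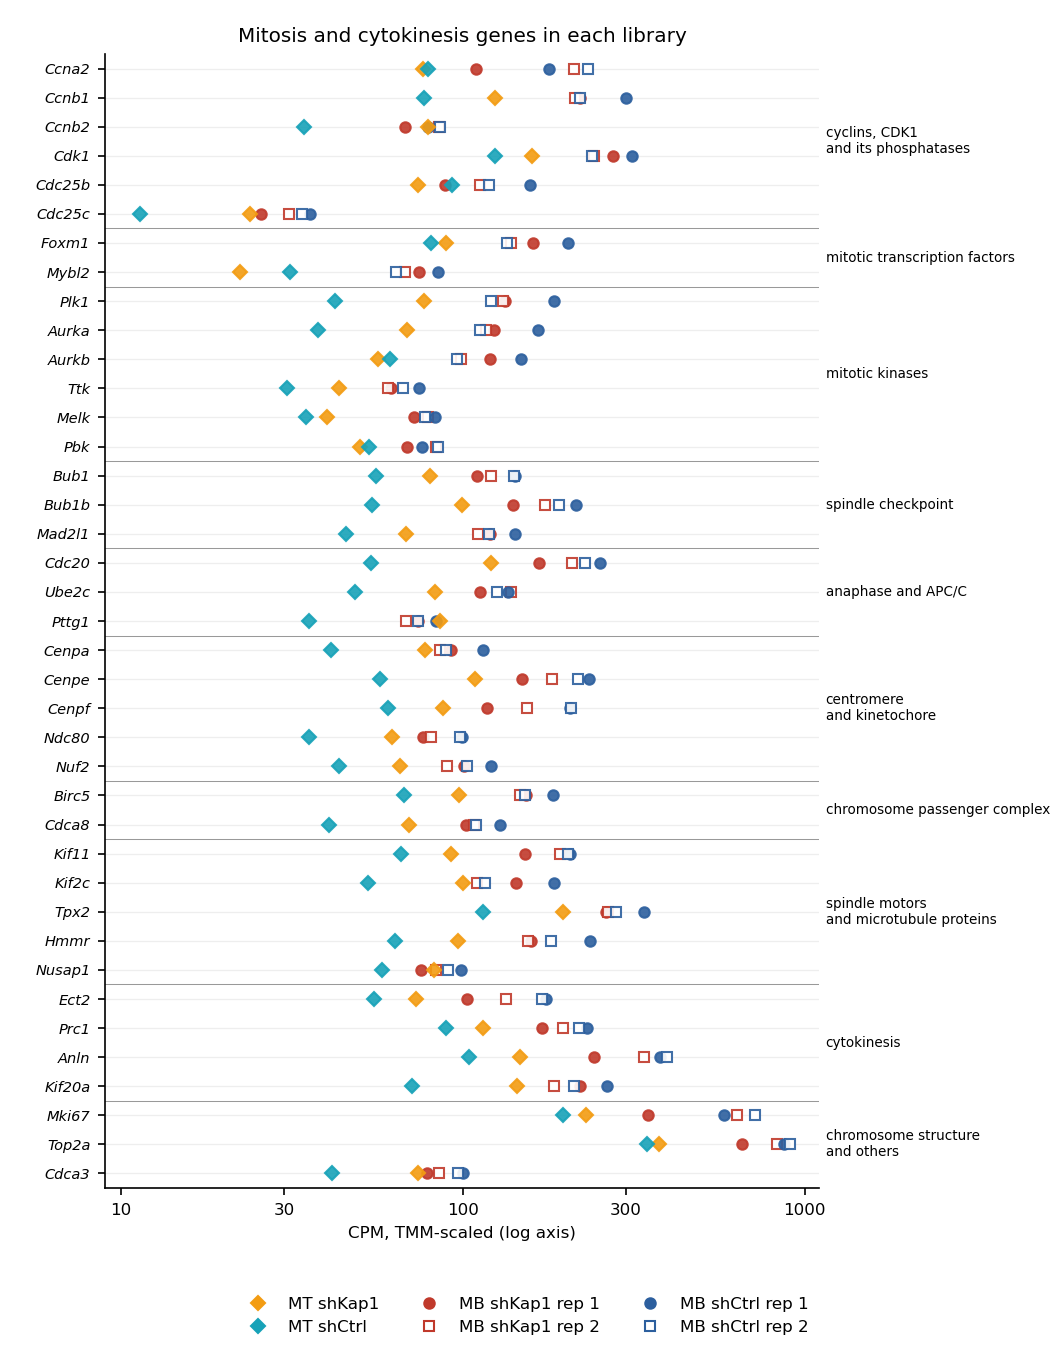
Level of each of the 39 genes in each of the 6 libraries, in TMM-scaled CPM on a log axis, grouped by role; diamonds are the 2 MT libraries, and circles and squares are replicates 1 and 2 of the MB groups. The MT control diamond lies left of both MB control points for all 39 genes, and the MT knockdown diamond lies right of it for 34.

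Genes with the most and the least negative change in MT control cells are shown by their promoters. The CHR and the CCAAT box are the elements this gene class is known for. Promoters are those of RefSeq on GRCm38.p6, 250 bases before to 50 after the annotated start, given on the gene's strand. Of the 39 genes, 32 had an entry. Cdc20 (chr4:118437294-118437593, minus strand), Cenpe (chr3:135212313-135212612, plus strand) and Bub1b (chr2:118597961-118598260, plus strand) had the most negative change among these genes in the fit without the file mark term. Cdc25b (chr2:131186698-131186997, plus strand) had the least negative change. Ccnb2 (chr9:70421505-70421804, minus strand) and Cenpa (chr5:30666636-30666935, plus strand) had the largest difference between MT knockdown and MT control among the remaining promoters that hold both elements. Capitals mark the CHR (TTTGAA or TTTAAA) and the CCAAT box (CCAAT), each on either strand.
Cdc20: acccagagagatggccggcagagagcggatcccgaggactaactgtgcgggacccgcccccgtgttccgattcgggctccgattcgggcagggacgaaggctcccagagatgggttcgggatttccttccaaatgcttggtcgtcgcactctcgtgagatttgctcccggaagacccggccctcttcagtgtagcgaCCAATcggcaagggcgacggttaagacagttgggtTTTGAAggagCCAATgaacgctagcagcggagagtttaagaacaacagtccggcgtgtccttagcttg
Cenpe: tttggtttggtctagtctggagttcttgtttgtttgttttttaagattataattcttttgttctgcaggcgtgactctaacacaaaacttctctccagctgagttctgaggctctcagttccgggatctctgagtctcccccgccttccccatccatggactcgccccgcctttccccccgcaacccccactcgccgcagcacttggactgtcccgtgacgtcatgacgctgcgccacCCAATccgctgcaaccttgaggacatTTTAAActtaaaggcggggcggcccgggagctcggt
Bub1b: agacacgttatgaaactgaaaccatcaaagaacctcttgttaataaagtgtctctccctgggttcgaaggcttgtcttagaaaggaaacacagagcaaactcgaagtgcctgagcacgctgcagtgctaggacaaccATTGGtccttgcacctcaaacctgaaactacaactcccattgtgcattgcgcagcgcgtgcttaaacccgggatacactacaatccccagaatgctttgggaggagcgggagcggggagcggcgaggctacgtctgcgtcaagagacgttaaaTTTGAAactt
Cdc25b: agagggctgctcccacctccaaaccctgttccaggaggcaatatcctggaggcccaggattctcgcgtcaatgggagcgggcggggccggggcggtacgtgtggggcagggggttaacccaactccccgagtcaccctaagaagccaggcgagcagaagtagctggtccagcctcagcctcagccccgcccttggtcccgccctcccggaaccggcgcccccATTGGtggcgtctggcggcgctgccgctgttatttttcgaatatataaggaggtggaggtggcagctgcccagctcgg
Ccnb2: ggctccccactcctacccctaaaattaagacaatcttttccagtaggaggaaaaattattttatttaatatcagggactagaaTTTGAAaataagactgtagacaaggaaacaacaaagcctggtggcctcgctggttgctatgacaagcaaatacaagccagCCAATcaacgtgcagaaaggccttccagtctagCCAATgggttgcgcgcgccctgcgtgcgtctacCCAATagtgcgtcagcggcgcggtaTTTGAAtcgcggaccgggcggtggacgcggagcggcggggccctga
Cenpa: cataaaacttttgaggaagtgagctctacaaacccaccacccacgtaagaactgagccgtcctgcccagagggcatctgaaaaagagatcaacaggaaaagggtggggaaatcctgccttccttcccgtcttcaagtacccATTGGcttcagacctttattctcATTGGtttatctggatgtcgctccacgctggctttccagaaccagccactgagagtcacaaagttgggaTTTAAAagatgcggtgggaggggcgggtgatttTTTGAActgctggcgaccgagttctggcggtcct
Counted from the annotated start, the CHR letters began at -18 in Cdc20, 14 in Cenpe and 40 in Bub1b, while the Cdc25b window held CCAAT letters at -28 and no CHR letters. CCAAT letters began at -53 and -8 in Cdc20, -12 in Cenpe and -113 in Bub1b. Ccnb2 held CHR letters at -167 and 4, with CCAAT letters at -87, -54 and -21 between them. Cenpa had CHR letters at -17 and 16 and CCAAT letters at -109 and -86. A CHR was found in 24 of the 32 promoters (75%), against 27.8% of all 27025 promoters in the same table. Within 60 bases before to 50 after the start, 21 of the 32 held one (65.6%), against 9.04% of all promoters. At least 1 CCAAT box was found in 22 (68.8%, against 37.9% of all), and both elements in 20 (62.5%, against 10.9% of all). A CHR with 2 or more CCAAT boxes was found in 15 (46.9%, against 3.25% of all). The E2F site of the replication genes (TTTGGCGC or TTTCGCGC, either strand) was found in 1 promoter, that of Cdk1 (3.12%, against 0.833% of all). TTTAAA reads the same on both strands and was counted once, and 1 of the 32 promoters had motifs that overlap. Mybl2, Melk, Mad2l1, Pttg1, Nuf2 and Nusap1 held neither element in this window. These matches are letters in a window, and binding was not measured.

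In MT, the knockdown library held more of most of these RNAs than the control library. With the file mark term 25 of the 39 genes rose and 1, Mybl2, fell, against 9.09% of all tested genes that rose and 11.2% that fell. The median log2 change was 0.58, against 0.02 over all genes, and 34 of the 39 were above 0, as were 51.7% of all tested genes. The MT knockdown level was at least 1.5 times the MT control level for 19 genes (15.2% of all tested genes) and at least 2 times for 5, Pttg1, Ccnb2, Cdc20, Cdc25c and Kif20a (7.21% of all). Without the term none of the 39 passed (smallest adjusted p = 0.490, with 14 at an unadjusted p under 0.05, all higher, against 3.43% of all genes). DESeq2 without it called Cdc20, Pttg1 and Ccnb2 as higher, and 0.364% of all genes. Scaling by total library size moved the median of all genes to 0.15 and the share of higher calls among all calls to 62.7%, against 44.8% with TMM. Under it the median of the 39 genes was 0.72, and 30 of them rose and none fell. Each MT group is 1 library, so the difference has no replicate check. With the term, both libraries are assumed to vary as the MB ones do once the difference between replicates 1 and 2 is removed. The common coefficient of variation between libraries was 9.74% in that fit and 32.9% without the term. Of the 12 terminal muscle markers 11 fell in MT knockdown (median log2 change -6.05). Cdkn1a was at 347 CPM in MT knockdown and 1719 CPM in MT control. Of a list of 5 cell cycle exit genes, 3 fell and 1 rose in MT knockdown (median -1.29). The part of these genes in the difference was not tested.

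**Figure D2:**
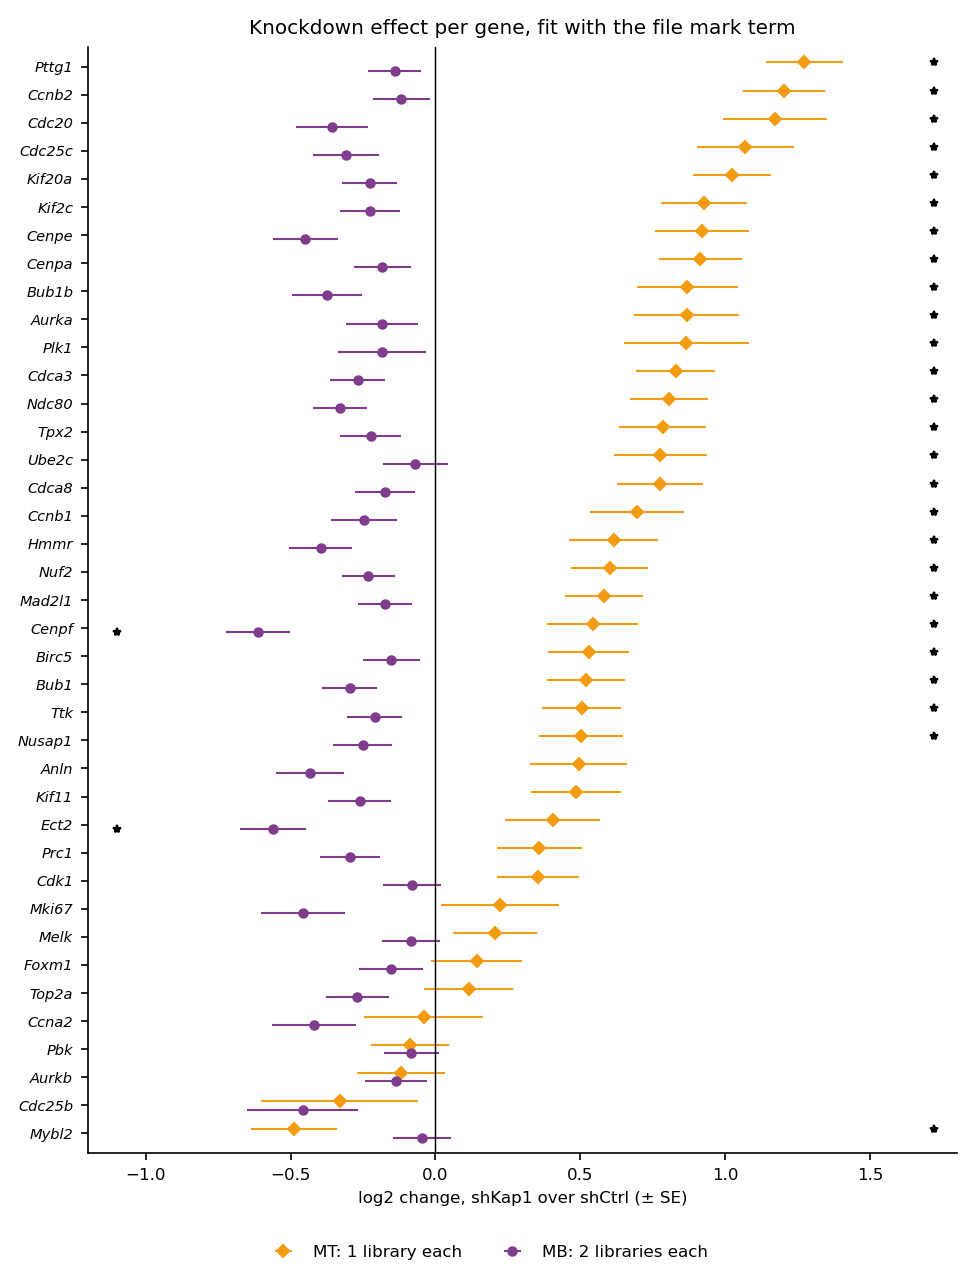
Log2 change of shKap1 over shCtrl per gene with its standard error, from the fit with the file mark term, in MT (diamonds) and MB (circles); stars mark adjusted p under 0.05. In MT the changes ran from -0.49 for Mybl2 to 1.27 for Pttg1, and in MB all 39 lay below 0, with 2 called.

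The MT control library lay below both MB control libraries for all 39 genes (40.6% of all tested genes). The MT knockdown library lay below both MB knockdown libraries for 36 of them (36.5% of all tested genes), the exceptions being Ccnb2, Pttg1 and Nusap1. Ccnb2 and the phosphatase Cdc25c were among the 5 genes with the largest difference in MT, and Ccnb1 also rose. Ccnb2, a partner of CDK1, was at 79.2 CPM in the MT knockdown library and 34.4 CPM in the MT control library, against 67.8 and 85.2 CPM in MB knockdown and 79.0 and 86.0 CPM in MB control. Its MT knockdown level lay inside the range of the MB libraries, whereas the MT control level was below all 4. The change between the MT libraries was 1.20 on the log2 scale (SE 0.14, adjusted p = 0.000272). Ccnb1, the main mitotic cyclin, was at 125 CPM in MT knockdown against 76.9 CPM in MT control, with 221 and 213 CPM in MB knockdown and 300.3 and 220.1 CPM in MB control. The knockdown library stood between the MT control and the MB libraries, and Ccnb1 rose in MT by 0.70 (SE 0.16, adjusted p = 0.0162). Cdc25c, which removes the inhibitory phosphates from CDK1, was at 23.8 CPM in MT knockdown, 11.4 CPM in MT control, 25.6 and 31.0 CPM in the MB knockdown libraries and 35.9 and 33.9 CPM in the MB control libraries. The knockdown library was close to the lower MB knockdown library, and the change in MT was 1.07 (SE 0.17, adjusted p = 0.00179). For Cdk1, the kinase itself, the level was 159 CPM in the MT knockdown library and 125 CPM in the MT control library, against 275 and 242 CPM in MB knockdown and 312 and 239 CPM in MB control. The MT change of 0.35 (SE 0.14, adjusted p = 0.108) did not pass.

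Ccna2 and Cdc25b, which act from S phase to mitotic entry, did not share the difference in MT. Ccna2, whose cyclin works in S phase and G2, was at 76.7 CPM in MT knockdown against 78.9 CPM in MT control, with 109 and 211 CPM in MB knockdown and 178 and 232 CPM in MB control. The MT libraries were nearly level, at -0.04 (SE 0.21, adjusted p = 0.918), and the sign turned to 0.10 under total library size. Cdc25b was at 73.8 CPM in MT knockdown, 92.8 CPM in MT control, 88.9 and 112 CPM in the MB knockdown libraries and 157 and 119 CPM in the MB control libraries. Its MT knockdown level was the lowest of the 6 libraries, the MT control level lay inside the MB range, and the MT change was -0.33 (SE 0.27, adjusted p = 0.467). In all, 3 of the 6 genes of this group rose in MT knockdown.

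Neither transcription factor of the mitotic genes rose in MT knockdown. Foxm1, which encodes the activator FOXM1, was at 89.3 CPM in the MT knockdown library and 80.9 CPM in the MT control library, against 161 and 138 CPM in MB knockdown and 203 and 134 CPM in MB control. Its 2 MT values were close, with a change of 0.14 (SE 0.16, adjusted p = 0.573). Mybl2, which encodes B-MYB, was at 22.3 CPM in MT knockdown against 31.2 CPM in MT control, with 74.6 and 67.6 CPM in MB knockdown and 84.4 and 63.6 CPM in MB control. It was lowest in the MT knockdown library and fell, with a change of -0.49 (SE 0.15, adjusted p = 0.0430), a call that total library size scaling and DESeq2, both with the file mark term, did not keep. Among 13 genes of the MuvB and DREAM complexes and of the CCAAT-binding factor NF-Y, E2f5 rose (0.74), E2f4 (-1.06) and Rbl1 (-0.43) fell, and the median was 0.01. With 1 of 13 higher and 2 of 13 lower, against 9.09% and 11.2% of all tested genes, these calls were near the background.

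Of the 6 mitotic kinases, Plk1, Aurka and Ttk rose in MT knockdown. Plk1, which drives centrosome maturation and mitotic entry, was at 77.2 CPM in MT knockdown, 42.4 CPM in MT control, 133 and 131 CPM in the MB knockdown libraries and 185 and 121 CPM in the MB control libraries. The change in MT was 0.87 (SE 0.22, adjusted p = 0.0384). Aurka, the spindle pole kinase that activates PLK1, was at 68.9 CPM in the MT knockdown library and 37.8 CPM in the MT control library, against 123 and 117 CPM in MB knockdown and 166 and 112 CPM in MB control. The MT knockdown library was again between MT control and MB, and the change in MT was 0.87 (SE 0.18, adjusted p = 0.0123). Ttk, the checkpoint kinase also called MPS1, was at 43.4 CPM in MT knockdown against 30.6 CPM in MT control, with 61.5 and 60.6 CPM in MB knockdown and 74.5 and 66.8 CPM in MB control. It rose by 0.50 (SE 0.14, adjusted p = 0.0271). Aurkb, the kinase of the chromosome passenger complex, was at 56.5 CPM in MT knockdown, 61.2 CPM in MT control, 119.9 and 98.7 CPM in the MB knockdown libraries and 148 and 96.3 CPM in the MB control libraries. Its MT change was -0.12 (SE 0.15, adjusted p = 0.638), turning to 0.02 under total library size. The other kinases, Melk and Pbk, had MT changes of 0.21 (adjusted p = 0.356) and -0.09 (adjusted p = 0.696), and Pbk turned to 0.05 under total library size.

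All 3 spindle checkpoint genes and all 3 genes of anaphase and the APC/C rose in MT knockdown. Bub1b, whose protein BUBR1 is part of the complex that inhibits CDC20, was at 99.2 CPM in the MT knockdown library and 54.3 CPM in the MT control library, against 140.3 and 174 CPM in MB knockdown and 214 and 192 CPM in MB control. The change in MT was 0.87 (SE 0.17, adjusted p = 0.00938). Mad2l1, another inhibitor of CDC20, rose by 0.58 and Bub1, the kinase that recruits checkpoint proteins to kinetochores, by 0.52 on the log2 scale. Cdc20, the APC/C activator, was at 121 CPM in MT knockdown against 53.8 CPM in MT control, with 167 and 209 CPM in MB knockdown and 253 and 227 CPM in MB control. It had the most negative change of the 39 in control differentiation and rose in MT knockdown by 1.17 (SE 0.18, adjusted p = 0.00247). Pttg1, or securin, which holds separase inactive until anaphase, was at 85.9 CPM in MT knockdown, 35.5 CPM in MT control, 74.2 and 68.4 CPM in the MB knockdown libraries and 83.4 and 74.0 CPM in the MB control libraries. It was the only one of the 39 whose MT knockdown level exceeded all 4 MB libraries, and its change of 1.27 (SE 0.13, adjusted p = 0.000126) was the largest of the 39. Ube2c, a ubiquitin-conjugating enzyme of the APC/C, was at 83.0 CPM in the MT knockdown library and 48.5 CPM in the MT control library, against 113 and 138 CPM in MB knockdown and 136 and 126 CPM in MB control. The MT change was 0.78 (SE 0.16, adjusted p = 0.00976). Exons of Ube2c overlap those of the muscle gene Tnnc2 on the other strand by 592 bases in GENCODE M21, and Tnnc2 had 0.026 CPM in MT knockdown and 0.268 CPM in MT control.

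The 5 centromere and kinetochore genes and both chromosome passenger genes rose in MT knockdown. Cenpa, the histone H3 variant that marks centromeres, was at 77.5 CPM in MT knockdown against 41.1 CPM in MT control, with 92.3 and 85.6 CPM in MB knockdown and 114 and 89.1 CPM in MB control. The MT knockdown level was near that of the lower MB knockdown library, and the change was 0.91 (SE 0.14, adjusted p = 0.00166). Cenpe, a kinetochore motor, was at 109 CPM in MT knockdown, 57.4 CPM in MT control, 149 and 182 CPM in the MB knockdown libraries and 234 and 217 CPM in the MB control libraries. Its MT change was 0.92 (SE 0.16, adjusted p = 0.00419). Ndc80, a core subunit of the kinetochore's microtubule coupler, was at 62.0 CPM in the MT knockdown library and 35.4 CPM in the MT control library, against 76.5 and 80.9 CPM in MB knockdown and 99.2 and 98.4 CPM in MB control. It rose by 0.81 (SE 0.13, adjusted p = 0.00230), and its partner Nuf2 rose by 0.60. Cenpf, a large kinetochore and nuclear matrix protein, was at 87.8 CPM in MT knockdown against 60.3 CPM in MT control, with 118 and 154 CPM in MB knockdown and 206 and 207 CPM in MB control. Its 2 MB groups did not overlap, and its MT change was 0.54 (SE 0.16, adjusted p = 0.0378). Cdca8 (borealin) and Birc5 (survivin), which hold Aurora B at centromeres, rose by 0.78 and 0.53 on the log2 scale.

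Among spindle motors and microtubule proteins, 4 of 5 rose in MT knockdown. Tpx2, which activates Aurora A on the spindle, was at 197 CPM in MT knockdown, 114 CPM in MT control, 262 and 265 CPM in the MB knockdown libraries and 338 and 279.7 CPM in the MB control libraries. The change in MT was 0.78 (SE 0.15, adjusted p = 0.00508). Kif2c, a kinesin that shortens microtubule ends at centromeres, was at 100.5 CPM in the MT knockdown library and 52.8 CPM in the MT control library, against 143 and 110.3 CPM in MB knockdown and 185 and 116 CPM in MB control. It rose by 0.93 (SE 0.15, adjusted p = 0.00189). Nusap1, a microtubule bundler, was at 82.2 CPM in MT knockdown against 58.1 CPM in MT control, with 75.5 and 83.7 CPM in MB knockdown and 99.0 and 90.6 CPM in MB control. Its MT knockdown level lay inside the MB knockdown range, and it rose by 0.50 (SE 0.14, adjusted p = 0.0344). Hmmr, a spindle pole protein, rose by 0.62, and Kif11, the kinesin that pushes spindle poles apart, had a change of 0.49 that did not pass (adjusted p = 0.0532).

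Of the 4 cytokinesis genes, Kif20a rose in MT knockdown. Kif20a, a kinesin of the central spindle, was at 144 CPM in MT knockdown, 71.0 CPM in MT control, 221 and 185 CPM in the MB knockdown libraries and 263 and 212 CPM in the MB control libraries. The change in MT was 1.02 (SE 0.13, adjusted p = 0.000564). Kif20a shares 1271 exon bases with Cdc23 on the other strand, and Cdc23 was at 80.3 CPM in MT knockdown and 78.1 CPM in MT control. Anln (anillin), Ect2, the exchange factor for RhoA at the furrow, and Prc1, the central spindle bundler, had changes of 0.49, 0.41 and 0.36, none of which passed (adjusted p = 0.0671, 0.118 and 0.117). Cdca3, a trigger of mitotic entry, was at 73.9 CPM in the MT knockdown library and 41.6 CPM in the MT control library, against 78.6 and 85.1 CPM in MB knockdown and 100.5 and 96.6 CPM in MB control. It rose by 0.83 (SE 0.14, adjusted p = 0.00225). Mki67, the proliferation antigen that coats mitotic chromosomes, was at 229.5 CPM in MT knockdown against 197 CPM in MT control, with 348 and 633 CPM in MB knockdown and 582 and 713 CPM in MB control. Top2a, which untangles sister DNA, was at 375 CPM in MT knockdown, 347 CPM in MT control, 656 and 828 CPM in the MB knockdown libraries and 871 and 907 CPM in the MB control libraries. For both, the 2 MT values were close and below all MB values, with changes of 0.22 (adjusted p = 0.502) and 0.11 (adjusted p = 0.649).

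In knockdown cells, 31 of the 39 genes fell in MT relative to the replicate 1 level of MB, with a median log2 change of -0.63. Over all tested genes the median was 0.02, and 16.5% fell. The MT knockdown library was below both MB knockdown libraries for 36 genes (36.5% of all tested genes), above both for Pttg1 and between them for Ccnb2 and Nusap1. It held 31.3% to 120.5% of the MB knockdown mean, with a median of 64.6%, and the highest shares were those of Pttg1 (121%), Ccnb2 (104%) and Nusap1 (103%). The lowest was that of Mybl2 (31.3%). Ccnb2, Cdc25b, Cdc25c, Pttg1, Cenpa, Ndc80, Nusap1 and Cdca3 were not called. Without the file mark term none of the 39 passed (smallest adjusted p = 0.267, with 24 at an unadjusted p under 0.05 and lower, against 7.81% of all genes). DESeq2 without it called 2.94% of all genes as lower and 7 of the 39, Kif11, Mybl2, Top2a, Mad2l1, Melk, Anln and Prc1. The drop was smaller in knockdown than in control cells for 38 genes when set against replicate 1 of MB and for 35 against replicate 2. Of all 16472 tested genes, 8546 and 8387 had a higher MT minus MB difference in knockdown than in control cells. Both comparisons use the same MT libraries, so they are not independent. Per replicate pair they are the same quantity as the knockdown effect in MT minus that in MB, given below, and add no separate evidence to it.

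**Figure D3:**
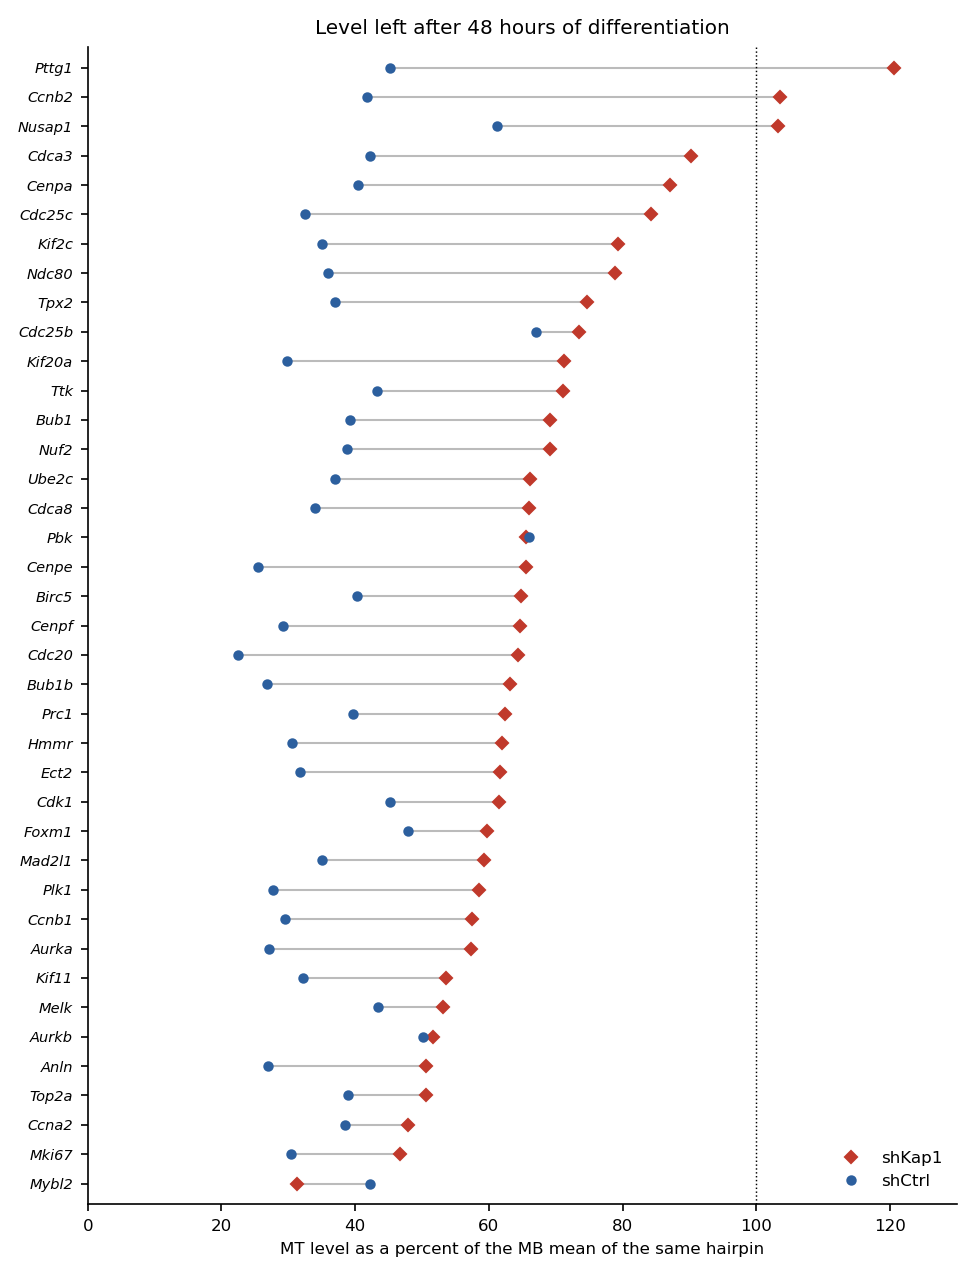
MT level of each gene as a percent of the MB mean of the same hairpin, for shKap1 (diamonds, 1 MT library over the mean of 2 MB libraries) and shCtrl (circles, likewise); the dotted line is 100%. The shKap1 diamonds run from 31.3% for Mybl2 to 120.5% for Pttg1, and the shCtrl circles from 22.4% for Cdc20 to 67.1% for Cdc25b.

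The knockdown effect in MT minus that in MB tests whether the hairpin's effect depends on the stage. With the file mark term it was above 0 and called for 28 of the 39 genes and below 0 and called for none. Of all 16472 tested genes 630 (3.82%) were called above 0 and 1092 below 0. The median was 0.93 on the log2 scale, against 0.02 over all genes, and 37 of the 39 were above 0. The largest differences were those of Cdc20 at 1.53 (SE 0.22, adjusted p = 0.00302), Pttg1 at 1.41 (SE 0.16, adjusted p = 0.000438) and Cdc25c at 1.38 (SE 0.20, adjusted p = 0.00228). Aurkb (0.02, adjusted p = 0.968) and Pbk (-0.0042, adjusted p = 0.995) had the smallest, and both changed sign with the scaling. Mybl2 had the most negative difference (-0.44, adjusted p = 0.159). Kif11, Anln, Ect2 and Prc1 were among the 28 though none of them passed in MT alone. The median over the 39 was 1.10 against the replicate 1 pair and 0.74 against the replicate 2 pair of MB. Without the term none of the 39 passed (smallest adjusted p = 0.927, with 22 at an unadjusted p under 0.05, all above 0, against 1.71% of all genes). DESeq2 without it called Cdc20, Pttg1, Cdca3, Ndc80 and Cenpe, and 0.115% of all genes, as above 0. With TMM 36.6% of all calls were above 0, and with total library size 52.1% were.

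In proliferating myoblasts the knockdown libraries held somewhat less of these RNAs, with all 39 estimates below 0 and a median log2 change of -0.23, against -0.01 over all genes. With the file mark term Cenpf and Ect2 fell and none rose, where 1.34% of all tested genes fell. Cenpf was at 118 and 154 CPM in MB knockdown and 206 and 207 CPM in MB control, a change of -0.61 (SE 0.11, adjusted p = 0.0151). Ect2 was at 103 and 134 CPM in MB knockdown and 175 and 171 CPM in MB control, a change of -0.56 (SE 0.11, adjusted p = 0.0306). In both genes the groups did not overlap, and 20 of the 39 genes were lower in both MB knockdown libraries than in both MB control libraries (13.1% of all tested genes). The difference was larger in the replicate 1 pair for all 39 genes, with medians of -0.37 in pair 1, where all 39 were lower, and -0.11 in pair 2, where 31 were lower and 8 higher. Lower in both MB pairs were 31 genes (31.6% of all tested genes), and 28 of these were higher in MT knockdown than in MT control (14.1% of all). Mki67, for instance, was at 348 and 633 CPM in MB knockdown and 582 and 713 CPM in MB control, both knockdown libraries lying below the control library of the same replicate number though the groups overlapped. The 11 nuclear and mitochondrial RNAs of the list, Malat1 among them, summed to 24207 and 33404 CPM in MB knockdown and 24527 and 36654 CPM in MB control and so differed more between replicates than between hairpins, and their part in the MB values was not tested. For 11 genes, among them Plk1, Aurka, Aurkb, Foxm1 and Cdk1, the estimate turned above 0 when 1 MB library was left out, which was replicate 1 of the control for 7 and replicate 1 of the knockdown for 4, and for Mybl2 also replicate 2 of the knockdown. Without the term none of the 39 passed (smallest adjusted p = 1), 3 had an unadjusted p under 0.05 (Cenpf, Ect2 and Cenpe, all lower, against 0.722% of all genes), and DESeq2 called none of them, with 0.0789% of all genes called as lower.

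A list of 92 further mitosis genes, 91 of them tested, had medians of the same sign as the 39 genes in each comparison, and smaller ones. In MT knockdown 36 of the 91 rose, among them the CDK partners Cks2 (1.01) and Cks1b (0.83), the kinetochore genes Zwint (0.85), Cenpw (0.89) and Ska2 (0.76) and the kinesin Kif22 (0.85). The condensin subunit Ncapd3 fell (-0.55), and the median was 0.37. Of all tested genes 9.09% rose in MT knockdown and 11.2% fell. In control cells 86 of the 91 fell in MT relative to MB (22.6% of all tested genes), with a median of -1.16. In knockdown cells 64 of the 91 did (16.5% of all tested genes), with a median of -0.59. The MT effect minus the MB effect was called above 0 for 37 of the 91 (3.82% of all tested genes). It was called below 0 for none of the 91 (median 0.56), against 1092 of all 16472 tested genes. In MB knockdown 4 of the 91 fell (1.34% of all tested genes). The 4 were Mastl (-0.44), the kinase that restrains mitotic phosphatases, and the kinesins Kif18a (-0.47), Kif15 (-0.43) and Kif23 (-0.45).

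The 28 genes of DNA replication had a median below 0 in MT knockdown, where that of the mitosis genes was above 0. Of the 28, 6 fell, the initiation factor Cdc6 (-0.75), the S phase cyclins Ccne1 (-0.70) and Ccne2 (-0.78), the helicase subunits Mcm2 (-0.68) and Mcm6 (-0.54) and the ribonucleotide reductase subunit Rrm2 (-0.64). Rfc4, a clamp loader subunit, rose (0.49), and the median was -0.25. The other 21 were not called, and of all tested genes 11.2% fell and 9.09% rose. The replication genes fell in MT relative to MB in both hairpins, 27 of 28 in knockdown cells (median -1.12) and 28 of 28 in control cells (median -1.03). Of all tested genes 16.5% fell in knockdown cells and 22.6% in control cells. None of the 28 was called in MB knockdown, where calls were few (632 of all 16472 tested genes). Summed over genes, the 39 mitosis and cytokinesis genes were at 3817 CPM in MT knockdown and 2689 CPM in MT control, against 5728 and 6545 CPM in MB knockdown and 7803 and 7126 CPM in MB control. The replication genes summed to 1637 CPM in MT knockdown and 2015 CPM in MT control, against 3675 and 3428 CPM in MB knockdown and 4242 and 3699 CPM in MB control. The ratio of the first sum to the second was 2.33 in MT knockdown and 1.33 in MT control, against 1.56 and 1.91 in MB knockdown and 1.84 and 1.93 in MB control. MT knockdown was thus the highest and MT control the lowest of the 6 libraries in this ratio, which does not depend on the scaling between libraries. With the 92 further mitosis genes in place of the 39, the ratio was 3.54 in MT knockdown and 2.34 in MT control, against 2.24 and 2.42 in MB knockdown and 2.37 and 2.36 in MB control, so that MT knockdown was again highest but MT control was not lowest. The ratio has 1 library per MT group and was not tested.

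**Figure D4:**
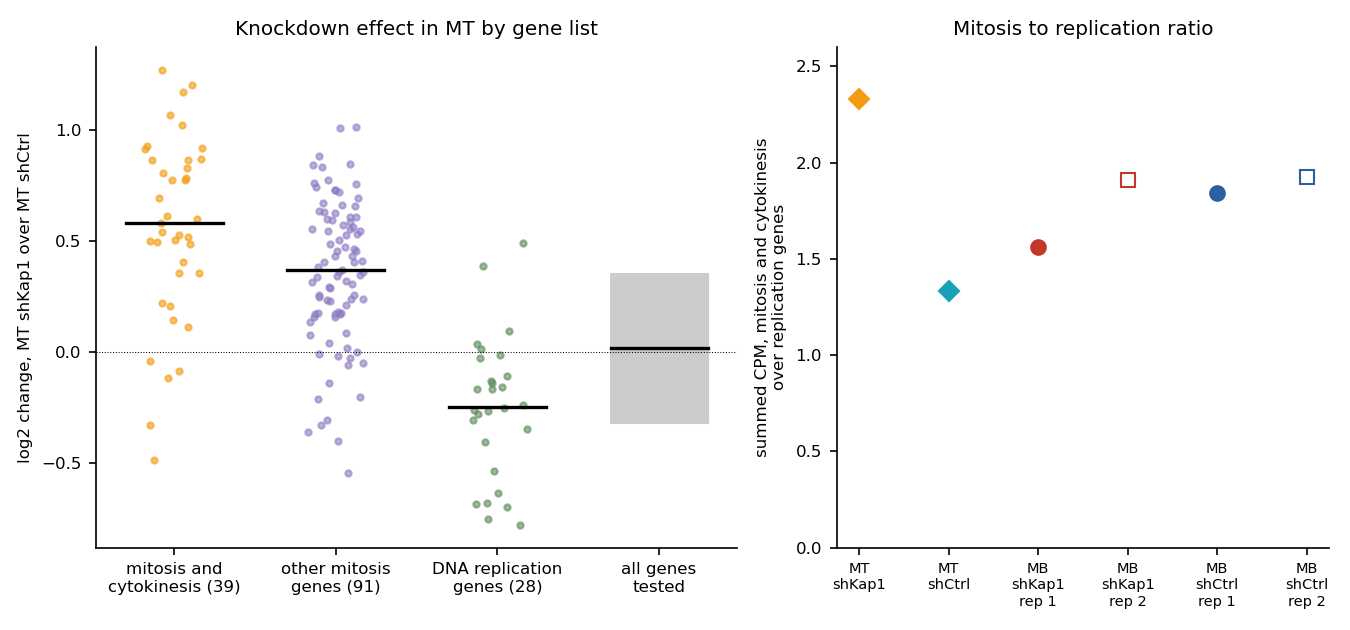
Left, log2 change of MT shKap1 over MT shCtrl for each gene of 3 lists, with black lines at the medians and a grey box for the interquartile range of all tested genes; right, the summed CPM of the 39 mitosis and cytokinesis genes over that of the 28 replication genes in each library. The medians are 0.58 for the 39 genes, 0.37 for the other mitosis genes and -0.25 for the replication genes, and the ratio is highest in MT shKap1 (2.33) and lowest in MT shCtrl (1.33).

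Levels can be compared between genes only per length, here as the median over the 6 libraries of CPM per kilobase of exon, with lengths from GENCODE M21 on GRCm38, a later build than that of the counts. Cdc20 stood highest at 101 CPM per kilobase, followed by Top2a at 82.3, Plk1 at 57.4 and Tpx2 at 56.4. Cdc25c was lowest at 5.75, below Cenpf at 8.81. Exons of 11 of the 39 genes overlap those of another counted gene in that annotation, 9 of them on the opposite strand, and no strand setting of the counting is known from the sources, so reads of such pairs cannot be told apart where they overlap.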

How the data were processed

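Gene counts were compared between 6 libraries grouped by their titles. The authors deposited raw read counts for each Ensembl gene, made with TopHat2 2.0.11, mm9 and HTSeq per the submitters' processing notes. The sources used here do not give the annotation release, counting mode or strand setting. Symbols, found for 32919 of 37991 identifiers (99.04% of counts), and exon lengths came from GENCODE M21. Summary lines without a gene were dropped: reads in no gene were 5.18% to 8.07% and ambiguous reads 2.81% to 2.93% of the total in those classes and genes. Detected genes numbered 19386 to 21351 per library, and 3 counts correspond to 0.0602 to 0.0828 CPM; this limit covers counting error only.

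The tests ran in R 4.3.3 with edgeR 4.0.16 (robust quasi-likelihood fit of all 6 libraries, TMM, filterByExpr by group, Benjamini-Hochberg over 16472 genes, threshold 0.05). A term for the file mark was the alternative whose calls stand in the text. Differences between single libraries are on the log2(CPM + 0.5) scale. With 2 libraries against 2, an exact two-sided permutation test cannot go below 0.333, so none was used. Alternatives were other scaling, no filter, DESeq2 1.42.0, leaving out each MB library and the MB libraries alone; 4 variants of the file mark fit were chosen after seeing the data. The 39 genes and all lists were chosen with earlier results of these data known. All 39 are named; the other lists give up to 6 genes with the smallest p, and promoters follow the change in control cells and the motifs.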

Additional observations from a re-analysis of the deposited data

Results flagged for a closer look

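The knockdown effect in MT minus that in MB, with a term for the file mark, was called for 28 of the 39 genes. It was higher in MT for all 28, where 3.82% of all 16472 tested genes were called above 0 and 1092 genes below 0. The 5 of the 28 with the smallest adjusted p were Pttg1 (a log2 difference of 1.41), Ccnb2 (1.32), Kif20a (1.25), Ndc80 (1.14) and Cdc25c (1.38). Without the term, none of the 39 passed. No group has 4 or more libraries, so single libraries were not tested as outliers.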

How the results depend on the processing

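Each MT group is 1 library, each MB group 2, and the calls rest on the term for the file mark. The replicate numbers were not shown to pair the libraries, since there are only 2 pairs; the difference between replicates in knockdown and that in control correlated across 16472 genes (r = 0.83, rho = 0.73; genes are not independent replicates). The replicate block (the file mark term) moved the genes called from 0 to 632 (MB knockdown), 3344 (MT knockdown), 7398 (MT against MB, control), 5446 (MT against MB, knockdown) and 1722 (MT effect minus MB effect), and those of the 39 to 2, 26, 38, 31 and 28. In the same order, DESeq2 without the block called 52, 368, 2384, 843 and 166 genes, and 0, 3, 36, 7 and 5 of the 39. For MT against MB in control cells, RLE scaling called 78 genes, no filter 582 and 25 of the 39, and leaving out 1 MB library 0 to 141 (136 without knockdown replicate 1, 141 without knockdown replicate 2); in knockdown cells, no filter called 2. With the block, no filter gave 1046 genes and 6 of the 39 in MB knockdown, where DESeq2 gave 329 genes; DESeq2 gave 1542 genes and 17 of the 39 in MT knockdown, and 4291, 2918 and 958 genes in the other 3 comparisons. The MB libraries alone gave no call, and leaving out a library with the block leaves no residual degrees of freedom and was not run. Of 2574 log2 changes of the 39 genes under alternatives, 33 had the opposite sign and none of these was called. In MB knockdown, leaving out 1 library gave -0.91 to 0.041 for Ccna2, -0.28 to 0.045 for Ccnb2, -0.27 to 0.11 for Cdk1, -0.45 to 0.15 for Foxm1, -0.25 to 0.16 for Mybl2, -0.49 to 0.12 for Plk1, -0.47 to 0.10 for Aurka, -0.44 to 0.18 for Aurkb, -0.22 to 0.054 for Pbk, -0.22 to 0.078 for Ube2c and -0.55 to 0.12 for Kif2c. It gave -0.10 to 0.22 for Ccnb2 and -0.026 to 0.12 for Nusap1 in MT against MB of knockdown cells, and -0.081 to 0.87 for Ccna2, -0.083 to 0.31 for Cdc25b, -0.0095 to 0.58 for Foxm1, -0.30 to 0.31 for Aurkb and -0.14 to 0.14 for Pbk for the MT effect minus the MB effect. Total library size gave 0.10 for Ccna2, 0.019 for Aurkb and 0.049 for Pbk in MT knockdown, with and without the block. For the MT effect minus the MB effect it gave 0.10 for Pbk, with and without the block, and with the block Aurkb was at -0.019 under RLE and DESeq2 and at -0.018 under no filter. The causes were not tested.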
